A study of Sorghum bicolor with 12 samples.

Results

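The sweet sorghum cultivar Keller was compared with the grain sorghum cultivar BTX623 after 6 h in 5% sucrose solution, with 2 arrays of each cultivar, 4 of the 12 arrays of the study. The comparison held every probe that read well above background, by the scanner's own flag, on both arrays of at least 1 of the cultivars, which kept 30447 of the 41977 probes on the array. Of those kept, 27244 were named for an annotated gene locus and 3203 for an expressed sequence tag (EST), a cDNA read without a matching gene model. Seedlings of both cultivars were 14 days old, were grown in a greenhouse under natural light, and were washed out of the soil with little root damage before the sucrose treatment. The other 8 arrays held each cultivar at 0 h and 2 h. Total RNA came from entire seedlings. The 2 arrays of each group were biological replicates, but which plantings or plants each one came from is not given in the sources used here, so the p-values measure only the spread between these samples. Each sorghum type is represented by 1 cultivar. No seedlings held for 6 h without sucrose were analysed here, so an effect of sucrose and one of the time since 0 h cannot be told apart.

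Grain and sweet sorghum are forms of the same species, Sorghum bicolor. Grain sorghum is bred for starch in its seeds, whereas sweet sorghum grows tall and stores soluble sugars, mainly sucrose, in its stem. Leaves make sucrose through sucrose-phosphate synthase, transporters load it into the phloem, and sucrose synthase and invertases split it where it is used. Sucrose is also a signal that changes the transcription of genes in sugar metabolism, photosynthesis and growth. BTX623 is the line whose genome serves as the sorghum reference, and the gene probes were designed on its annotated coding regions. A lower level of a transcript in Keller and a Keller transcript that differs from the BTX623 probe sequence, or a locus that Keller lacks, therefore cannot be told apart by these arrays.

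Signals are given as relative signal, the processed signal of a probe divided by the 75th percentile of its array, so that 1 is that percentile. The percentile was 323.3 and 616.2 signal units on the Keller 6 h arrays, against 555.1 and 620.8 on the BTX623 6 h arrays. The flag for a signal well above background was set for 29750 and 30801 probes in Keller, against 31543 and 30531 in BTX623. The arrays of a cultivar correlated at 0.955 in Keller and 0.956 in BTX623 across probes on the log2 scale. The 10 probes for shoot markers, which encode photosynthetic proteins, were well above background on all 4 arrays, and their summed relative signal was 1486 and 1271 in Keller, against 1338 and 1567 in BTX623. The 7 root marker probes summed to 13.8 and 12.2 in Keller, against 10.9 and 13 in BTX623. Most of that sum came from the root cap loci Sb10g002550 and Sb10g002560. As log2 differences, Keller minus BTX623, all 7 root probes lay above 0, at 0.03 to 1.33. Their median was 0.49, against -0.12 for the shoot markers. With limma, 0 of these 17 marker probes passed the test at 6 h, and 0 reached an unadjusted p under 0.05. The markers of both organs were detected in Keller on every array and, for 1 root probe, missed the flag on a BTX623 array. In entire seedlings, fewer cells of a type and less RNA per cell cannot be told apart.

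At 6 h, 717 probes (2.35%) differed between the cultivars by at least 2-fold in measured signal with a Benjamini-Hochberg adjusted p under 0.05 in limma. Of these, 228 (0.749%) were higher in Keller and 489 (1.61%) were lower. For 95 of the higher and 257 of the lower probes the dimmer cultivar was not well above background on either array, so that only a lower bound on their fold could be had. The 133 other probes higher in Keller had a median log2 difference of 2.36, which is 5.15-fold, and 43 of them differed at least 8-fold. The 232 other probes lower in Keller had a median of -2.41, a size of 5.31-fold, and 73 of them differed at least 8-fold. With the remaining probes at their bounds, the median size was 5.80-fold for the higher and 6.01-fold for the lower calls. Over all kept probes the median log2 difference was 0.04, and 90.7% differed less than 2-fold. The Keller and BTX623 arrays did not overlap for any of the 717 probes, nor for 35.5% of all kept probes.

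EST probes were called in 126 of 3203 cases (3.93%), against 2.17% of the locus probes. They made up 30 of the probes higher in Keller and 96 of those lower. The share called was also uneven across signal levels. It was 3.05% where the brightest 6 h array read between 0.1 and 1, and 0.857% where it read above 10.

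**Figure D1:**
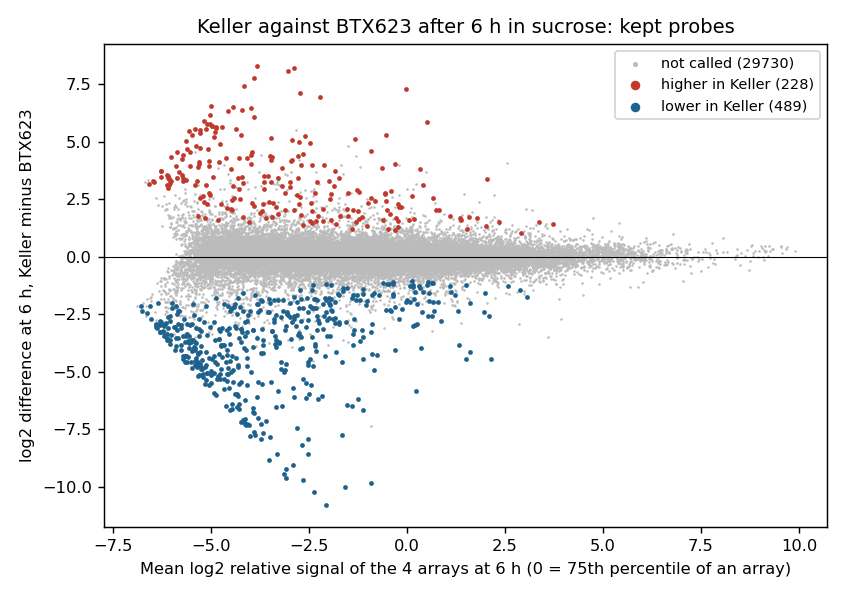
Log2 difference, Keller minus BTX623, of every kept probe after 6 h in sucrose (vertical axis) against the mean log2 relative signal of the 4 arrays (horizontal axis), with the 717 called probes in colour. Most probes (90.7%) lie within 2-fold of 0, and of the called probes 228 lie above and 489 below. The values of probes dim in 1 cultivar are measured values and not bounds.

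The slides did not hold the cultivars evenly. Replicate 2 of both cultivars lay on slide 3, whereas replicate 1 of Keller lay on slide 1 and that of BTX623 on slide 2. With the slide as a block, 206 of the 228 higher and 424 of the 489 lower calls remained. Within slide 3 alone, 227 of the 228 and 487 of the 489 differed at least 2-fold, a description only, since these arrays were among those that made the calls. A fit that blocked on the replicate number called 398 probes higher and 687 lower, and all 717 were among them. Without scaling between arrays the calls numbered 89 higher and 346 lower, and the median over all kept probes was then -0.35 on the log2 scale. With normexp background correction they numbered 104 higher and 129 lower, and without 1 of the 6 h arrays 112 to 130 higher and 262 to 307 lower.

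Loci were eligible here if they were called, were bright enough to measure in both cultivars and did not overlap between the cultivars. The 12 of them with the largest differences were followed in each direction. For 3 of them, and for 1 locus at background in 1 cultivar, the primers that the study used in quantitative RT-PCR are printed to identify the transcripts. They are not the array probes and were not placed on a genome here. The lines give each primer from its 5′ end.
Sb02g007380 forward: tcatcaacatcatcatcgcc
Sb02g007380 reverse: atgaagtccaggcacgaca
Sb09g026210 forward: aagatctcggacaagctcca
Sb09g026210 reverse: tccatagaaacagatccgcc
Sb03g015821 forward: tgaacagcaatcacaacgtg
Sb03g015821 reverse: ggaaagttgatttgggcaga
Sb01g004875 forward: ttcaaggcaagggtatttgg
Sb01g004875 reverse: ctccaagttaagctcgcacc

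Among the loci higher in Keller, Sb02g007380 had relative signals of 12.5 and 9.59 in Keller, against 0.257 and 0.136 in BTX623. The Keller arrays lay far above both BTX623 arrays, with a log2 difference of 5.87 ± 0.52 (SE, n = 2 arrays each, adjusted p = 0.00036, limma). Sb02g031160, annotated as similar to an RNase S-like protein, read 5.98 and 3.17 in Keller, against 0.0941 and 0.128 in BTX623. Ribonucleases of the S type cleave RNA, and members of the family act in self-incompatibility and in phosphate scavenging in other plants. Its difference was 5.31 ± 0.52 (adjusted p = 0.00069). The study's gene list places it on chromosome 2 from 66142527 to 66145285, minus strand. That list names no genome build, and this holds for all positions given here.

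Sb01g013710, similar to a class III homeodomain-leucine zipper (HD-Zip) protein, read 0.676 and 0.843 in Keller, against 0.0273 and 0.0427 in BTX623. Transcription factors of this class pattern meristems, leaf polarity and vascular tissue in Arabidopsis. The log2 difference was 4.47 ± 0.37 (adjusted p = 0.00026), and the locus lies on chromosome 1 from 12771371 to 12776852. Sb02g000670, similar to a disease resistance response protein, read 3.54 and 1.92 in Keller, against 0.128 and 0.0914 in BTX623. Its difference was 4.59 ± 0.69 (adjusted p = 0.00812).

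Sb02g033380 had the smallest SE of the 12. It read 3.32 and 3.25 in Keller, against 0.192 and 0.214 in BTX623, and its difference was 4.02 ± 0.29 (adjusted p = 0.00014). Sb03g010470 showed the opposite. It read 21.6 and 6.99 in Keller and 0.126 and 0.050 in BTX623, and although its log2 difference of 7.28 led the list, its SE was 1.42 and its adjusted p 0.033. The groups did not overlap, but the locus was called under only 12 of 23 alternative settings, and without any 1 of the 6 h arrays its adjusted p was 0.103 to 0.236.

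The other 6 loci of this list were Sb01g005155, Sb09g013990, Sb04g022153, Sb08g022490, Sb05g001110 and Sb07g008860, with differences of 5.25, 5.12, 4.93, 4.39, 4.22 and 4.01 on the log2 scale. In both of the following, Keller lay far above BTX623. Sb01g005155 read 0.725 and 1.46 in Keller, against 0.0200 and 0.0363 in BTX623. Sb04g022153 read 0.692 and 1.42 in Keller, against 0.0373 and 0.0282 in BTX623. Neither locus has an annotation in the lists used here. Their Keller signals were also close at 0 h, at 0.888 and 0.655 for Sb01g005155 and 0.832 and 0.667 for Sb04g022153. Whether both probes read the same transcript was not tested, so these need not be separate measurements. The 3 leading EST probes that were measured in both cultivars were 4.01, 3.41 and 3.06 higher in Keller on the log2 scale.

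**Figure D2:**
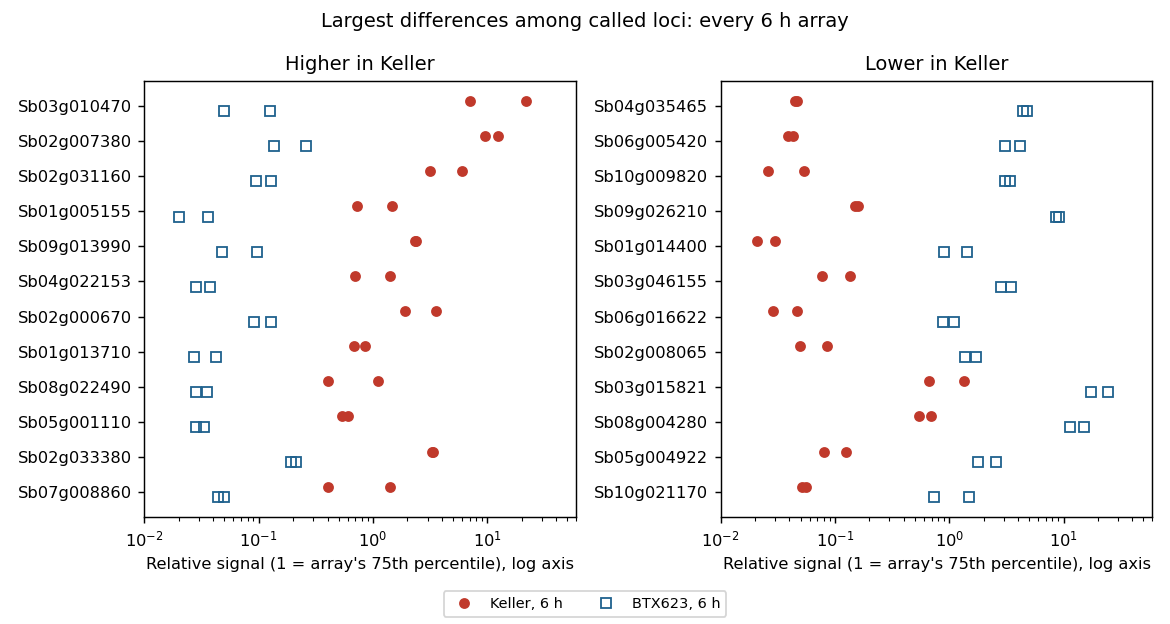
Relative signal (log axis, 1 is the 75th percentile of the array) of the 12 loci with the largest differences in each direction among called loci well above background on all 4 arrays. Each point is 1 array after 6 h in sucrose, Keller filled and BTX623 open. Only loci where the cultivars did not overlap were eligible.

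In the other direction, Sb04g035465 read 0.0464 and 0.0447 in Keller, against 4.81 and 4.45 in BTX623. The arrays of each cultivar nearly coincided, and the log2 difference of -6.67 ± 0.30 (adjusted p = 1.2e-05) was the largest among loci measured in both. Sb06g005420 followed with 0.0385 and 0.0430 in Keller, against 3.10 and 4.17 in BTX623, a difference of -6.47. Sb10g009820 read 0.0539 and 0.0257 in Keller, against 3.40 and 3.10 in BTX623. A second probe, for another transcript of Sb10g009820, gave -6.17 beside the -6.45 of the first.

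Sb09g026210 read 0.151 and 0.158 in Keller, against 8.63 and 9.13 in BTX623, with a difference of -5.84 ± 0.29 (adjusted p = 1.4e-05). Sb03g015821 read 0.671 and 1.35 in Keller, against 24.5 and 17.5 in BTX623. Its difference was -4.44 ± 0.41 (adjusted p = 0.00048). Sb08g004280 read 0.545 and 0.687 in Keller, against 11.5 and 15 in BTX623. The only one of these 12 in the study's list of transcription factors was Sb01g014400, a member of the ABI3VP1 family, whose B3 domain binds DNA. It read 0.0301 and 0.0208 in Keller, against 0.900 and 1.43 in BTX623, a difference of -5.50.

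Differences of -4.93 to -4.29 were found for Sb03g046155, Sb06g016622, Sb02g008065, Sb05g004922 and Sb10g021170. Of these, Sb03g046155 read 0.135 and 0.0772 in Keller, against 2.81 and 3.45 in BTX623. The 3 leading EST probes had log2 differences of -4.26, -3.99 and -3.85. All 24 loci except Sb03g010470, Sb08g022490 and Sb07g008860 were also called in the same direction at both 0 h and 2 h. Sb08g022490 missed the threshold at 2 h (adjusted p = 0.0663), and Sb03g010470 and Sb07g008860 missed it at 0 h (adjusted p = 0.0925 and 0.391).

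The bound, given for 352 of the called probes, sets the mean of the brighter cultivar against a limit on each array of the dimmer one. That limit was the weakest signal that still counted as well above background there, or the probe's own signal where that was higher. Such probes entered the comparison through the cultivar where they were bright, so their number is no measure of how often the cultivars differ. The bound had a median of 7.18-fold for the 95 and 6.81-fold for the 257. It was at least 4-fold for 74 of the higher and 180 of the lower probes, and under 2-fold for 27 of the lower ones. The lowest bound among the lower probes was 0.939-fold, which leaves equal levels possible.

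The largest bounds among loci lower in Keller belonged to neighbours on chromosome 1. Sb01g004875 read 0.00926 and 0.0118 in Keller, not well above background, against 9.94 and 11.5 in BTX623, at least 524-fold lower (adjusted p = 0.00064). Sb01g004880 read 0.00653 and 0.00507 in Keller, against 9.61 and 10.6 in BTX623, at least 496-fold lower, and a probe for another of its transcripts gave at least 223-fold. The BTX623 arrays stood far above those of Keller for both. Sb04g035440 read 0.0246 and 0.0194 in Keller against 5.32 and 4.16 in BTX623. Its Keller signals, though not flagged, lay above the weakest flagged ones, so its bound of 216-fold is the same as its measured fold. Of all called probes the largest bound, at least 784-fold lower, was that of an EST probe with 0.0224 and 0.0136 in Keller, against 15.9 and 16.0 in BTX623.

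Among probes higher in Keller, an EST probe reached at least 149-fold, with 3.21 and 1.73 in Keller against 0.0116 and 0.00545 in BTX623. Sb08g004205 read 1.13 and 3.55 in Keller, against 0.0118 and 0.00465 in BTX623, and was at least 127-fold higher. Sb05g006670 read 2.24 and 1.43 in Keller, against 0.0127 and 0.0131 in BTX623, at least 113-fold higher. The Keller arrays differed from each other, yet no BTX623 array came near either of them. Sb09g025480 was at least 79.4-fold higher and Sb01g003890, at 0.726 and 0.744 in Keller against 0.00377 and 0.00492 in BTX623, at least 46.6-fold higher.

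Counting the flags alone, 223 probes were well above background on both Keller 6 h arrays and on neither BTX623 6 h array, and 615 on both BTX623 arrays and on neither Keller array. Only 95 of the 223 and 257 of the 615 were called. Replicate 1 of Keller was dimmer than that of BTX623, with a 75th percentile of 323.3 against 555.1 signal units. How far this made the flag counts uneven was not tested, so they are no count of transcripts that a cultivar lacks. Across all times, 88 probes were well above background on all 6 Keller arrays and on none of BTX623, and 162 showed the reverse. Of these, 76 of the 88 and 145 of the 162 were called at 6 h. With the scanner's less strict flag, for a positive and significant signal, the 6 h numbers were 238 for Keller and 456 for BTX623.

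The differences at 6 h were set beside those on the 0 h and 2 h arrays, which the 6 h values did not use, although all times entered the same fit. At 2 h, 754 probes (2.48%) were called, 251 (0.824%) higher in Keller and 503 (1.65%) lower. At 0 h there were 693 (2.28%), 228 (0.749%) higher and 465 (1.53%) lower. Of the 228 probes higher at 6 h, 176 (77.2%) were called higher at 0 h and 191 (83.8%) at 2 h. The shared probes were 77.2% of the 0 h calls and 76.1% of the 2 h calls. Of the 489 lower probes, 386 (78.9%) were called lower at 0 h and 416 (85.1%) at 2 h, which were 83.0% and 82.7% of the calls at those times. In median over the measured values, dim probes included, the higher probes differed by 2.80, 3.07 and 3.25 on the log2 scale at 0 h, 2 h and 6 h, and the lower probes by -3.08, -3.22 and -3.39. The 717 probes were chosen by their 6 h values, so their size at 6 h is a description.

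**Figure D3:**
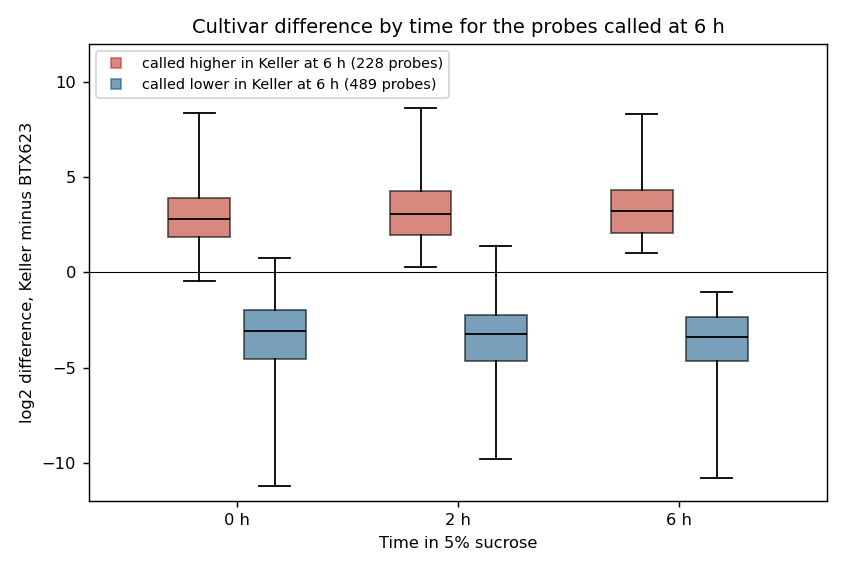
Log2 difference, Keller minus BTX623, at 0 h, 2 h and 6 h for the 717 probes called at 6 h, as boxes from the lower to the upper quartile with the median as a line and whiskers to the extremes. The medians lie at 2.80 to 3.25 for the 228 higher probes and at -3.39 to -3.08 for the 489 lower ones, and values of probes dim in 1 cultivar are measured values and not bounds.

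The test of the change itself, the cultivar difference at 6 h minus that at 0 h, called 0 of 30447 probes (0%) in limma. At an unadjusted p under 0.05, 249 probes changed at least 2-fold, and the smallest adjusted p was 1.0. Among the 717 probes called at 6 h, 81 (11.3%) had an unadjusted p under 0.05 for the change, against 0.903% of all kept probes. The 6 h arrays entered both the calls and the change, so these shares are a description. Without any change, 5% of all kept probes would be expected under that p, so the test was conservative. The fit also took no account of same-numbered repeats deviating together. One that blocked on them called 0 probes too, with a smallest adjusted p of 0.802. The 0 calls therefore do not show that the cultivar difference stayed the same over time. For 14 called probes, 3 higher and 11 lower, the difference was under 2-fold in that direction at both earlier times. They were picked after their values were seen, and for none was the change past the adjusted threshold.

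Of these 14, Sb06g032080 read 0.00527 and 0.00754 in Keller, against 0.0744 and 0.609 in BTX623 after 6 h, at least 10.5-fold lower (adjusted p = 0.0117). At 0 h it read 0.00374 and 0.00393 in Keller, against 0.00447 and 0.00366 in BTX623, so that the cultivars overlapped there. Its BTX623 arrays at 6 h lay far apart, both above Keller. Sb06g001030 read 0.109 and 0.306 in Keller at 6 h, against 0.00997 and 0.00858 in BTX623, at least 11.6-fold higher (adjusted p = 0.0366). At 0 h its BTX623 signals of 0.463 and 0.0578 enclosed the 0.221 and 0.121 of Keller. Under the alternative settings, Sb06g032080 kept its call in 18 of 22 and Sb06g001030 in only 8 of 22.

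Sb04g033820, similar to a RING/C3HC4/PHD zinc finger protein, changed far more with time than between cultivars. At 0 h it read 11.1 and 9.82 in Keller, against 13.4 and 14.7 in BTX623. At 2 h it read 1.99 and 2.62 in Keller, against 2.68 and 3.27 in BTX623, and at 6 h 0.927 and 1.08 in Keller, against 2.11 and 2.19 in BTX623. Keller lay below BTX623 at each time without overlap, and only at 6 h did the log2 difference of -1.10 ± 0.22 pass (adjusted p = 0.0375). Sb01g025970 was higher in Keller. It read 9.95 and 11.9 in Keller at 6 h, against 4.88 and 5.73 in BTX623, and 13 and 15 in Keller at 0 h, against 10.6 and 9.98 in BTX623. Sb02g034790, similar to an AAA-type ATPase, was 0.135 and 0.117 in Keller at 6 h, against 0.412 and 0.612 in BTX623, a difference of -2.0. These calls depended on the processing. Of 23 alternative settings, Sb04g033820 kept its call in 6, Sb01g025970 in 9 and Sb02g034790 in 10.

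The genes of carbohydrate metabolism come from a list that the study compiled. Of 350 kept probes in the study's carbohydrate list, 2 were higher in Keller and 2 lower (1.14%, beside 2.35% of all kept probes), their median log2 difference was 0.05, and 333 differed less than 2-fold. Sb02g023790 encodes a protein similar to alpha-amylase type A, an enzyme that breaks starch into shorter sugars. It read 1.26 and 0.858 in Keller, against 0.0759 and 0.0785 in BTX623, a log2 difference of 3.75 ± 0.39 (adjusted p = 0.00095). At 0 h its signals were 0.408 and 0.535 in Keller, against 0.0609 and 0.0319 in BTX623, and at 2 h 0.681 and 0.516 in Keller, against 0.107 and 0.0679 in BTX623. Keller was above BTX623 on every array, and the gene lies on chromosome 2 from 57701214 to 57703517.

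Sb07g025220, similar to sorbitol dehydrogenase, which converts sorbitol to fructose, read 1.56 and 2.28 in Keller, against 0.328 and 0.448 in BTX623. Its difference was 2.30 ± 0.31 (adjusted p = 0.00417). Sb07g024320, similar to monodehydroascorbate reductase, which regenerates the antioxidant ascorbate, was lower at 1.25 and 1.39 in Keller, against 4.25 and 4.06 in BTX623. That was a difference of -1.65 (adjusted p = 0.0253). The remaining member, Sb05g002230, read 0.206 and 0.228 in Keller, against 0.812 and 0.589 in BTX623, a difference of -1.67 (adjusted p = 0.00618).

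The genes with an annotation here that make, move or split sucrose, which need not be whole families, gave no call. With limma, 0 of 11 kept probes for sucrose transporters, sucrose synthases, sucrose-phosphate synthases and invertases passed, and 0 reached an unadjusted p under 0.05. Among all kept probes, 2.35% were called and 8.38% had an unadjusted p under 0.05. The sucrose transporter Sb01g045720 read 3.79 and 3.24 in Keller, against 2.84 and 3.73 in BTX623, and the cultivars overlapped. The sucrose synthase Sb01g033060 read 6.88 and 5.92 in Keller, against 6.97 and 6.64 in BTX623, a difference of -0.09 ± 0.32. All 4 sucrose-phosphate synthases had values below 0, from -0.63 to -0.12, with SEs of 0.32 to 1.02, each wider than its difference. The cell wall invertase Sb06g031930 read 3.03 and 4.04 in Keller, against 2.62 and 3.81 in BTX623, again overlapping.

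The genes listed for C4 photosynthesis, which concentrates carbon dioxide around Rubisco, gave no call either. The phosphoenolpyruvate carboxylase of the C4 pathway, Sb10g021330, read 66.9 and 56.9 in Keller, against 58.5 and 89.5 in BTX623. The 4 kept C4 and Rubisco genes differed by -0.56 to -0.07, and 0 of them reached an unadjusted p under 0.05. Sb01g001180, the cytochrome P450 CYP71E1 of the pathway to the cyanogenic glucoside dhurrin, read 29.2 and 27.6 in Keller, against 17.3 and 14.9 in BTX623. Although the cultivars did not overlap, the log2 difference of 0.82 was not called.

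Transcription factors bind DNA and set the transcription of other genes. Of 1222 kept probes in the study's list, of which only part was available here, 7 were higher and 5 lower (0.982%), with a median difference of 0.08, beside 2.35% and 0.04 over all kept probes. Besides the HD-Zip gene, those higher in Keller came from the NAC, MYB, MADS, GRAS and JUMONJI families. Sb10g027100, similar to the NAC domain protein NAC1, read 0.550 and 0.674 in Keller, against 0.125 and 0.0925 in BTX623. Its difference was 2.50 ± 0.27 (adjusted p = 0.00117). Sb08g022560, similar to a No apical meristem protein of the same family, was at least 2.90-fold higher, with BTX623 not well above background. Proteins of this family regulate organ boundaries, senescence and stress responses.

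Sb05g027360, similar to the MYB protein MYBAS1, read 0.990 and 2.58 in Keller, against 0.288 and 0.304 in BTX623, a difference of 2.43 (adjusted p = 0.0349). It lost its call without either BTX623 6 h array or replicate 2 of Keller (adjusted p = 0.187 to 0.202), and narrowly without any 2 h array (0.0503 to 0.0558). Sb09g006360, similar to the MADS-box protein ZAG1 that specifies floral organs in maize, read 0.318 and 0.240 in Keller, against 0.0593 and 0.0766 in BTX623, a difference of 2.04. Sb05g026260, of the GRAS family, was at least 4.01-fold higher (adjusted p = 0.00617). Sb09g008870, of the JUMONJI family of histone demethylases, read 0.395 and 0.353 in Keller, against 0.0753 and 0.114 in BTX623.

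Of the 5 transcription factors lower in Keller, 4 were ABI3VP1 genes, out of 34 of that family kept, where 1.61% of all kept probes were lower. This count of single loci, some of them neighbours, is no test of the family. Neighbours of Sb01g014400 on chromosome 1 accounted for a pair of them, each annotated as weakly similar to a putative auxin response factor. Sb01g014410 read 0.0683 and 0.0585 in Keller, against 0.235 and 0.280 in BTX623, a difference of -2.02. Sb01g014420 read 0.120 and 0.0871 in Keller, against 0.350 and 0.388 in BTX623, a difference of -1.85. The fourth, Sb09g004870, was at the floor in Keller and at least 1.98-fold lower. The E2F-DP gene Sb04g028440, of a family that controls the cell cycle, read 0.115 and 0.138 in Keller, against 0.489 and 0.403 in BTX623.

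Some large families that hold stress and hormone regulators gave no call, unlike NAC with 2 of 79 kept probes (2.53%) and MYB with 1 of 85 (1.18%). With limma, 0 of 123 AP2-EREBP, 0 of 114 bHLH, 0 of 83 bZIP and 0 of 31 WRKY probes were called, and 4, 4, 3 and 0 of them reached an unadjusted p under 0.05. Over all kept probes 8.38% did. Their median log2 differences were 0.05, 0.08, 0.01 and -0.19, beside 0.04 over all probes, and 7 of the 31 WRKY probes lay above 0. Limma also called 0 of 85 cell wall, 66 cytochrome P450, 56 ribosomal protein, 47 receptor-like kinase and 47 heat shock and chaperone probes, of which 6, 7, 1, 5 and 2 reached an unadjusted p under 0.05. Their medians were 0.28, -0.07, 0.14, 0.15 and -0.16 on the log2 scale.

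Single members of defence and detoxification families differed. Sb05g001000, similar to a class III peroxidase, a secreted enzyme that acts on the cell wall, read 2.35 and 3.13 in Keller, against 0.499 and 0.387 in BTX623. Its difference was 2.63 ± 0.29 (adjusted p = 0.00136). Sb01g030530, another putative peroxidase, was lower at 0.0573 and 0.0337 in Keller, against 0.465 and 0.157 in BTX623. These were 2 of 42 kept peroxidase probes (4.76%, beside 2.35% of all kept probes). Sb01g048000, similar to glutathione S-transferase 13, read 0.805 and 0.906 in Keller, against 2.58 and 2.51 in BTX623. It was 1 of 30 probes of that family (3.33%), whose members conjugate toxins to glutathione.

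Further called loci with an annotated function were picked after their values were seen. Sb09g020360, similar to a beta-tubulin, a building block of microtubules, read 0.831 and 0.588 in Keller, against 6.06 and 3.76 in BTX623, a difference of -2.77. Sb02g005440, similar to a cation-transporting ATPase, read 0.537 and 1.24 in Keller, against 2.98 and 3.32 in BTX623. Sb08g021850, similar to the phosphatase BSL2, a regulator in brassinosteroid signalling in Arabidopsis, read 0.365 and 0.289 in Keller, against 0.980 and 0.954 in BTX623. All of these were lower in Keller.

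Higher in Keller was Sb01g002760, similar to the alpha subunit of anthranilate synthase, which takes the first step towards tryptophan. It read 0.127 and 0.191 in Keller, against 0.0382 and 0.0398 in BTX623, a difference of 2.0. Sb03g031420, similar to a MATE efflux protein, a class of membrane exporters, read 0.398 and 0.378 in Keller, against 0.124 and 0.104 in BTX623. Sb09g025050, similar to the signal recognition particle 54 kDa protein, read 1.46 and 2.25 in Keller, against 0.569 and 0.635 in BTX623. Of the 133 called probes with an annotation, 83 had one that named no function, and 458 called loci had none.

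Mobile elements are DNA stretches that copy or move themselves within a genome, and the study listed loci related to them. For long terminal repeat (LTR) elements, 9 of 853 kept probes were higher and 14 lower (2.70%), and for CACTA elements 1 of 336 was higher and 6 lower (2.08%). Both shares lay near the 2.35% of all kept probes. Sb09g013990 led the higher LTR loci with 2.37 and 2.33 in Keller, against 0.0476 and 0.0965 in BTX623. Sb10g004960 read 4.56 and 4.96 in Keller, against 0.308 and 0.360 in BTX623, a difference of 3.84. At 0 h it read 0.641 and 0.993 in Keller, against 0.103 and 0.235 in BTX623. Sb04g007540 was the single CACTA locus higher in Keller, at 0.312 and 0.255 against 0.0327 and 0.0262 in BTX623. Sb03g019673, similar to a putative transposase, was at least 2.90-fold lower.

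Loci that the study singled out for their expression were looked up. Sb02g039380 was called at all 3 times. At 6 h it read 0.873 and 0.800 in Keller, against 0.253 and 0.175 in BTX623, a difference of 1.99 ± 0.38 (adjusted p = 0.0277). Without any 1 of the 6 h arrays its adjusted p lay between 0.0779 and 0.220. Sb01g001893 was called only at 0 h, where it read 5.34 and 3.67 in Keller, against 1.15 and 0.635 in BTX623. At 6 h it read 0.454 and 0.872 in Keller, against 0.265 and 0.387 in BTX623, a log2 difference of 0.97 (adjusted p = 0.616). Its signal was lower at 6 h than at 0 h in both cultivars.

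Structural genes of the flavonoid pathway, which leads to pigments and tannins, were above 0 at 6 h but not called. Sb04g000260 read 0.334 and 0.135 in Keller, against 0.0424 and 0.0507 in BTX623, a log2 difference of 2.20 (adjusted p = 0.0992). In the fit blocked on the replicate number its adjusted p was 0.0319, the lowest over 23 alternatives, of which the highest was 0.598. Sb03g028880 and Sb06g031790 differed by 1.33 and 1.88 (adjusted p = 0.786 and 0.811). In both cultivars replicate 1 lay above replicate 2. For Sb06g031790 the signals were 0.615 and 0.176 in Keller, against 0.126 and 0.0633 in BTX623. With the replicate number as a block in limma, the adjusted p was 0.108 for Sb03g028880 and 0.109 for Sb06g031790. Sb09g003710 differed by 0.54 with overlapping cultivars, and within slide 3 by -0.10.

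Called loci were unevenly spread over the chromosomes, in the order of the locus numbers. Of 25739 kept loci, 575 (2.23%) were called. On chromosome 5 it was 93 of 1574 (5.91%), 39 higher and 54 lower, and on chromosome 8 it was 63 of 1442 (4.37%), 21 higher and 42 lower. Chromosome 9 had 2.77%, and the other 7 chromosomes had 1.55% to 2.13%. The same pair of chromosomes led at the other times, with 5.46% at 0 h and 6.10% at 2 h on chromosome 5, and 4.16% and 4.72% on chromosome 8.

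**Figure D4:**
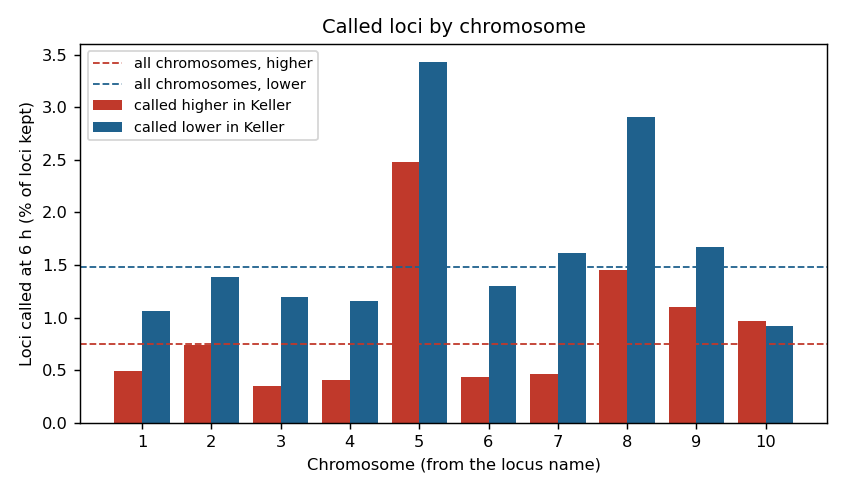
Percent of kept loci called at 6 h on each of the 10 chromosomes, as a bar for those higher and a bar for those lower in Keller, with the shares over all loci (0.754% and 1.48%) as dashed lines. Chromosome 5 (2.48% higher, 3.43% lower) and chromosome 8 (1.46% higher, 2.91% lower) have the tallest bars in the lower direction.

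Runs, where at least 5 of 20 neighbouring kept loci were called, numbered 10 and held 57 called among 173 kept loci. A run could extend over more than 20 loci. They were found by searching these calls, so their density is a description. Outside the runs 4.72% of the loci of chromosome 5 and 4.05% of those of chromosome 8 were called. The longest run lay on chromosome 5 from Sb05g004290 to Sb05g004585, with 11 of 28 loci called. Of its first 9 loci, 7 were called lower, and further along 4 were called higher.

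In that run Sb05g004370 read 0.00493 and 0.00362 in Keller, not well above background, against 0.0618 and 0.162 in BTX623, and was at least 4.92-fold lower. Sb05g004380, next to it, read 0.0631 and 0.0411 in Keller, against 0.213 and 0.415 in BTX623, a difference of -2.54. Sb05g004335, similar to hydroperoxide lyase, an enzyme that makes volatile aldehydes from fatty acids, lies among the lower loci but read 4.52 and 1.54 in Keller, against 2.72 and 1.43 in BTX623. It was not called, and the cultivars overlapped. Sb05g004410 read 1.07 and 1.20 in Keller, against 0.239 and 0.214 in BTX623, and Sb05g004460 1.18 and 1.40 in Keller, against 0.253 and 0.191 in BTX623. Their differences of 2.33 and 2.55 (adjusted p = 0.00111 and 0.00115) were in the direction opposite to that of the first loci. The signals of Sb05g004410 and Sb05g004460 were close to each other at every time. Whether their probes read the same transcript was not tested, so they need not be separate measurements. At 0 h all 11 loci were called in the same direction, and at 2 h all but Sb05g004290.

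**Figure D5:**
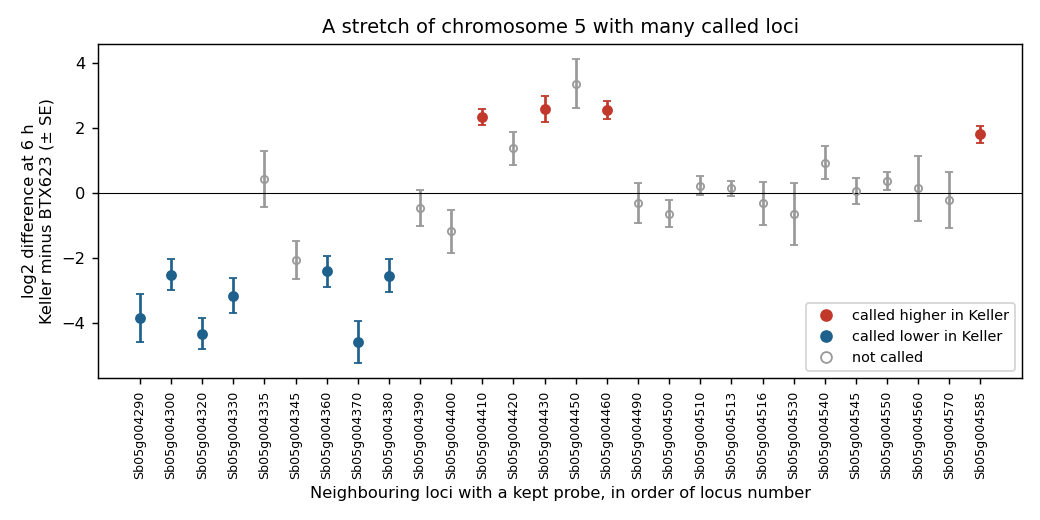
Log2 difference, Keller minus BTX623 (± SE), at 6 h for the 28 kept loci of the run from Sb05g004290 to Sb05g004585 in order of locus number, with called loci filled. The 7 called lower loci lie together at the left of the 4 called higher ones, and values of loci dim in 1 cultivar are measured values and not bounds.

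On chromosome 8, Sb08g003120 to Sb08g003190 held 5 called loci among 10, all lower in Keller. Sb08g003156 read 0.144 and 0.122 in Keller, against 1.25 and 1.13 in BTX623, a difference of -3.16. Sb08g003160 read 0.0722 and 0.0850 in Keller, against 0.608 and 0.556 in BTX623, a difference of -2.89. On chromosome 2, Sb02g029950 to Sb02g030060 held 5 lower loci among 11. Sb02g029950 read 0.00567 and 0.00467 in Keller, not well above background, against 2.08 and 1.88 in BTX623, at least 97.1-fold lower (adjusted p = 3.7e-06). Its tandem partner Sb02g029970 was at least 4.41-fold lower. On chromosome 9, in the run from Sb09g001210 to Sb09g001310, Sb09g001302, similar to an amino acid selective channel protein, read 0.744 and 0.800 in Keller, against 3.33 and 2.52 in BTX623.

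Sb09g001210 in the same run was higher in Keller and brighter at later times in both cultivars. It read 3.71 and 5.24 in Keller at 0 h, against 1.15 and 1.04 in BTX623. At 2 h it read 8.48 and 7.80 in Keller, against 3.14 and 2.46 in BTX623, and at 6 h 13.5 and 23.2 in Keller, against 6.16 and 6.08 in BTX623. The cultivar difference passed the test at every time, at 2.01, 1.55 and 1.53 on the log2 scale.

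Duplicated genes were compared from the study's lists, of which only part was available here. Among 1144 tandem pairs with both loci kept, 9 had both called in the same direction, 2 higher and 7 lower, 0 had them called in opposite directions, and 45 had 1 locus called. Among 1659 segmental pairs, 0 had both called and 26 had 1. Of all kept loci 2.23% were called, and whether the pair types differ from that share or from each other was not tested. The tandem pair Sb01g040460 and Sb01g040490, both similar to dynamin, a membrane-cutting GTPase, was at least 5.58-fold and 13.3-fold lower in Keller. The pair Sb05g003930 and Sb05g003950 was at least 9.47-fold and 13.7-fold higher. Probes of near-identical copies can bind the same transcript, so the members of such a pair are not separate measurements.

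Near the threshold, Sb02g026990 read 0.580 and 0.497 in Keller, against 1.17 and 1.15 in BTX623, and was just inside it with a difference of -1.11 (adjusted p = 0.0498). Sb03g043610 read 0.812 and 1.57 in Keller, against 0.368 and 0.357 in BTX623, and was just outside with a larger difference of 1.64 (adjusted p = 0.0504). The spread of the Keller arrays was wider there. An EST probe just inside differed by 3.06 (adjusted p = 0.0494) and another just outside by 3.98 (adjusted p = 0.0504). The outer pair was called as well when the fit blocked on the replicate number.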

How the data were processed

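The intensity values that the authors deposited were processed signals of one-colour arrays, labelled with Cy3 and read with Agilent Feature Extraction 10.7.1.1, background-subtracted and detrended within each array. Their table of processed intensity values matched them, and their flags, deposited with the other columns, marked outliers and spots well above background. Outlier spots were left out and spots of a probe averaged. Log2 signals minus the log2 75th percentile of each array were fitted with limma 3.58.1 (R 4.3.3) over all 12 arrays, with 6 group means, a variance trend and Benjamini-Hochberg adjustment for each comparison. Probes with an adjusted p under 0.05 and at least 2-fold were called. The script was tested on simulated data.

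The members, lists and tests were chosen with earlier results of these data known. Named loci were the 12 largest differences and 3 EST probes in each direction, the 6 largest bounds, called members of lists and runs, loci the study names, and those near the threshold; others are marked as picked after their values were seen. Annotations and positions came from the study's gene lists. Same-numbered repeats deviated together, with correlations of 0.285 to 0.683 in 15 of 15 pairs, and the paired fit has the repeat number as a block. The p-values rest on 2 arrays a group with the spread pooled over 6 residual degrees of freedom, which limits the precision; the median SE was 0.39. Probes for neither a locus nor an EST (623) were left out. The study's sources used here give no normalization or test for the arrays.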

Additional observations from a re-analysis of the deposited data

How the results depend on the processing

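At 6 h the calls higher and lower in Keller numbered 228 and 489. They became 104 and 129 with normexp background correction, 89 and 346 without scaling, 67 and 130 among probes well above background on all 4 arrays, 98 and 234 with only the 4 arrays, 129 and 294 at an adjusted p under 0.01, and 1303 and 1516 by 2-fold alone. Leaving out 1 array gave 112 to 248 and 262 to 501. With the replicate number as a block they were 398 and 687. With quantile normalization 222 and 483 of the calls remained, with normexp 96 and 126, and 16 of the lower ones turned round with normexp.

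At 2 h the 754 calls became 271 with normexp, 409 without scaling, 241 on all 4 arrays and 1146 with the replicate block, and 391 to 767 without 1 array. At 0 h the 693 calls became 211 with normexp, 364 without scaling, 246 on all 4 arrays and 71 with only the arrays compared, and 428 to 620 without 1 array. The change from 0 h to 6 h gave 0 calls under each alternative that kept the test, with 414 probes at an unadjusted p under 0.05 and 2-fold with the replicate block.

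Of the 145 named probes, Sb03g015045 (0.01) and Sb09g001240 (0.02) turned round with normexp, and Sb09g003710 (-0.10) within slide 3. Without 1 of the 6 h arrays 49 to 61 of them lost their call. The block on the replicate number changed the calls of 3 named probes and of no others among them. With the slide as a block, 12 named probes lost their call and 2 gained it. Probes on 1 cultivar alone fell to 136 for Keller and 242 for BTX623 when the 0 h and 2 h arrays of the other cultivar had to lack them too, and runs numbered 2 with a window of 10 loci. The cause of these changes was not tested.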
